A study of Mus musculus with 6 samples.

Results

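The enzymes described here are 10 genes of glycolysis, namely Aldoa, Tpi1, Gapdh, Pgk1, Pgam1, Eno1, Eno2, Pkm, Ldha and Ldhb. They were named as a list and matched by gene symbol, and all 10 were found among the 22413 genes of the deposited count table. The samples are bulk RNA of adult mouse retinal ganglion cells, which carry the output of the retina to the brain. In 3 samples (Tgfbr1flx/flx;Vglut2Cre/+, here Cre-positive) both copies of Tgfbr1 were floxed and a Vglut2-driven Cre recombinase was present, and in the other 3 (Tgfbr1flx/flx;Vglut2+/+, here Cre-negative) both copies were floxed and no Cre was present. Tgfbr1 is a receptor of TGF-beta signalling, and Cre is expected only in cells that have used the Vglut2 gene. How the cells were isolated, and how many animals went into each sample, is not stated in the labels. The p-values therefore describe only how far these samples spread, which may be technical.

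Glycolysis converts glucose to pyruvate in the cytosol and yields ATP without oxygen. The enzymes studied here cover its later steps, from the splitting of fructose 1,6-bisphosphate to pyruvate, together with the subunits of lactate dehydrogenase, which interconverts pyruvate and lactate. Several steps are shared by genes with different tissue use: Eno2 is the enolase of neurons and neuroendocrine cells and Eno1 the enolase of most cells, while Ldhb encodes the H subunit of lactate dehydrogenase, abundant in heart, and Ldha the M subunit, abundant in skeletal muscle. Aldoa and Gapdh are commonly among the abundant transcripts of neural tissue, and Gapdh is often used as a reference gene.

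To show how well reads can separate the paired genes, the same stretch of the coding sequence is given for both genes of a pair, from the GENCODE M21 transcripts (GRCm38, the assembly called mm10). Capitals mark the bases at which a pair differs.
Eno2, coding bases 1 to 90: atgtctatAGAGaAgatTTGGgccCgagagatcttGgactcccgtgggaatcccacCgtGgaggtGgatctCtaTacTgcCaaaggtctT
Eno1, coding bases 1 to 90: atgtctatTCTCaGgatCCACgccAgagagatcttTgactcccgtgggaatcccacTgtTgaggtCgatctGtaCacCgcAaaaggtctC
Ldhb, coding bases 61 to 150: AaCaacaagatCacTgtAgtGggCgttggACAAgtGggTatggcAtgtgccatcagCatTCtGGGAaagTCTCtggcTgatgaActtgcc
Ldha, coding bases 145 to 234: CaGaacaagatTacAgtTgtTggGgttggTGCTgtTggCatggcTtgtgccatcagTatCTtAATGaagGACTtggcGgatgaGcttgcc
The Eno2 and Eno1 stretches differ at 19 of 90 bases, and over all 1302 aligned coding bases the genes were 75.1% identical with no shared run longer than 20 bases. The Ldhb and Ldha stretches differ at 27 of 90 bases, and the genes were 71.7% identical over 996 aligned bases with no shared run longer than 18 bases. The paired genes are therefore distinct at the length of a sequencing read.

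Copies elsewhere in the genome are another matter for most of these enzymes. A transcript of Gapdh matched 78 other annotated loci at 95% identity or more over at least 200 bases, of which 75 are pseudogenes, and these matches covered 94.2% of its length. Matches covered 85.6% of the Eno1 transcript (3 loci), 76.8% of Ldhb (1 locus), 68.8% of Pgk1 (4), 65.5% of Pkm (1), 55.0% of Ldha (4), 43.1% of Pgam1 (1) and 19.3% of Tpi1 (1). Aldoa and Eno2 had no such match. In all, 8 of the 10 enzymes had a near-identical locus, against 3 of 40 other genes of glucose and pyruvate metabolism. The 3 were Pdhb (71.2% of the transcript covered), Gpi1 (50.2%) and Mpc1 (27.4%). How reads shared with such loci were counted is not given in the sources used here. The levels of these 8 enzymes and 3 other genes are therefore uncertain.

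Library totals ran from 8098891 to 21126291 counts in the Cre-positive samples and from 7486359 to 16372260 in the Cre-negative samples. Expression is given as counts, as CPM (the count scaled to the library total) or, where genes are set against each other, as the deposited FPKM (CPM per kilobase of gene). Of the 15 ganglion cell markers, Pou4f2 had at most 1 count in any library and Rbpms had 1 count in Cre-positive 1. The 15 summed to 4599, 5368 and 3861 CPM in Cre-positive 1, 2 and 3 and to 4075, 5489 and 930.4 CPM in Cre-negative 1, 2 and 3. Cre-negative 3 stood apart, with 0 counts of Slc17a6, the gene for Vglut2. Summed over 11 endothelial markers, the Cre-positive libraries held 704.0 CPM or less, against 7371 CPM in Cre-negative 3 and 36.1 and 330.2 CPM in the other 2 Cre-negative libraries. The 7 rod markers in the table summed to at most 13.0 CPM and the 2 cone markers to at most 0.215 CPM in any library. Summed Müller glia markers were highest in Cre-negative 2, at 872.5 CPM over 7 genes. The sum was 48.1 to 148.8 CPM in the Cre-positive libraries and 124.2 and 191.5 CPM in the other 2 Cre-negative ones. The markers did not go together: Cre-negative 2 had 3392 counts of Crym, 1842 of Slc1a3, 737 of Aqp4 and 561 of Glul. It had 0 counts of Rlbp1, Sox9 and Dkk3, and Rlbp1 had 2493 counts in Cre-negative 3. Amacrine markers reached 765.7 CPM (Cre-positive 2), horizontal cell markers 1093 CPM (Cre-positive 1) and pericyte markers 533.9 CPM (Cre-positive 3), so the libraries differed in the markers of other cell types in both genotypes. Tgfbr1 had 46, 0 and 793 counts in Cre-positive 1, 2 and 3 and 1, 0 and 1538 in Cre-negative 1, 2 and 3. A count over the whole gene says nothing of the floxed exon, so the genotype labels could not be checked with it. In bulk RNA, fewer cells of a type and less RNA per cell cannot be told apart.

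No enzyme differed between the genotypes by more than the spread between libraries. Of the 10 genes, 9 passed the filter on low counts and were tested, and 0 of the 9 had an adjusted p under 0.05 in edgeR's quasi-likelihood test with Benjamini-Hochberg adjustment over the 5727 genes tested (background: 0% called). At an unadjusted p under 0.05 there were also 0 of 9 enzymes, against 4.91% of all genes tested, and DESeq2 and limma voom called 0 of the enzymes at an adjusted p under 0.05, against 15% and 1.54% of all genes. Log2 fold changes, Cre-positive over Cre-negative, were below 0 for 6 enzymes and above 0 for 3, with a median of -0.57, beside 45.8% below 0 and a median of 0.14 over all genes tested. None of the 10 had every Cre-positive library above or every Cre-positive library below all Cre-negative libraries, against 10.4% and 2.3% of the genes tested. The median of all genes moved from 0.14 with TMM scaling to -0.13 with DESeq2's size factors and 0.03 with library totals, and 9 of 9 enzymes had the same sign under these 3 scalings. The standard errors, 1.25 to 3.16 on the log2 scale, leave large changes in either direction undetectable. Pgam1, with a log2 fold change of 4.31, had an unadjusted p of 0.187 (edgeR).

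**Figure D1:**
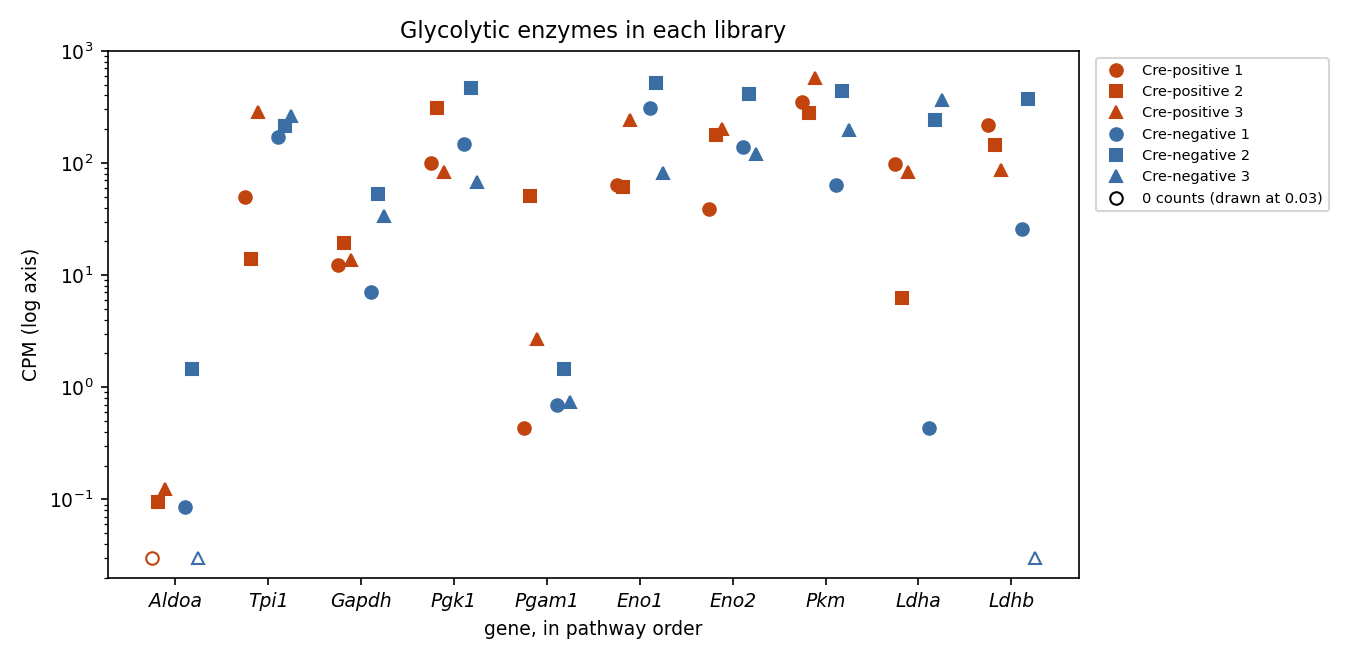
CPM (log axis) of each enzyme in the 3 Cre-positive libraries (left of each gene) and the 3 Cre-negative libraries (right), with open symbols for 0 counts. The genotypes overlap for every enzyme, Aldoa stays below 1.5 CPM in all libraries, and Ldhb is at 0 counts in Cre-negative 3.

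Aldoa, the aldolase that splits fructose 1,6-bisphosphate (chromosome 7, 126795234 to 126800751, minus strand), was nearly without counts. It had 0, 2 and 1 counts in Cre-positive 1, 2 and 3 and 1, 11 and 0 in Cre-negative 1, 2 and 3. Only Cre-negative 2 reached 10 counts, at 1.47 CPM, and no fold change is given because the gene was at or near the floor of 3 counts in the other libraries. Of its exon bases 0.859% overlap an exon of another annotated gene, Fam57b on the opposite strand. Aldoc, the brain form of aldolase, had 1912, 1162 and 0 counts in Cre-positive 1, 2 and 3 and 1, 0 and 0 in Cre-negative 1, 2 and 3. Aldoc was under the count filter of the edgeR test. DESeq2 tested and called it (adjusted p = 0.0123), with counts in 2 of 3 Cre-positive libraries, and it is named here after its values were seen.

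Tpi1, triosephosphate isomerase (chromosome 6, 124810586 to 124814296, minus strand), had 693, 294 and 2297 counts in Cre-positive 1, 2 and 3, or 49.7, 13.9 and 283.6 CPM. In Cre-negative 1, 2 and 3 it had 1958, 1608 and 4252 counts, or 168.7, 214.8 and 259.7 CPM. Cre-positive 1 and 2 lay below every Cre-negative library and Cre-positive 3 above them all. The log2 fold change was -0.87 ± 2.26 (SE; n = 3 each; edgeR, adjusted p = 0.9998), and it was -2.52 without Cre-positive 3 and -0.34 without Cre-positive 2.

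Gapdh, glyceraldehyde-3-phosphate dehydrogenase (chromosome 6, 125161715 to 125166467, minus strand), had 173, 406 and 110 counts in Cre-positive 1, 2 and 3 and 82, 393 and 553 in Cre-negative 1, 2 and 3. These were 12.4, 19.2 and 13.6 CPM in the Cre-positive libraries and 7.06, 52.5 and 33.8 CPM in the Cre-negative ones. By CPM it held ranks 2904 to 4994 among the genes of a library, well below the place of a usual reference gene. The Cre-positive values lay inside the range of the Cre-negative values, and the log2 fold change was -0.84 ± 2.88. It was -1.28 without Cre-negative 1 and -0.39 without Cre-negative 2. As given above, 94.2% of the Gapdh transcript has near-identical copies elsewhere, and their part in this level was not tested.

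Pgk1, phosphoglycerate kinase, the first ATP-forming step (chromosome X, 106187100 to 106203699, plus strand), was at 99.6, 311.6 and 82.4 CPM in Cre-positive 1, 2 and 3 and at 148.9, 466.4 and 67.9 CPM in Cre-negative 1, 2 and 3. Library 2 was the highest in both genotypes, and the ranges overlapped widely. Its log2 fold change of -0.28 ± 1.97 turned positive with limma voom (0.50), without Cre-positive 3 (0.055) and without Cre-negative 2 (0.49). It was -1.03 without Cre-positive 2 and -0.72 without Cre-negative 3.

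Pgam1, phosphoglycerate mutase (chromosome 19, 41911923 to 41918660, plus strand), had 6, 1068 and 22 counts in Cre-positive 1, 2 and 3 and 8, 11 and 12 in Cre-negative 1, 2 and 3. A single library, Cre-positive 2 at 50.6 CPM, set the group mean of 17.9 ± 28.3 CPM, against 0.964 ± 0.438 CPM in the Cre-negative group (SD, n = 3 each). The log2 fold change was 4.31 ± 3.16 with all libraries and 0.78 without Cre-positive 2. The gene had 10 counts or more in 4 of the 6 libraries and also passed the count filter without Cre-positive 2.

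The enolases make phosphoenolpyruvate. Eno1 (chromosome 4, 150236721 to 150248879, plus strand) had 882, 1290 and 1946 counts in Cre-positive 1, 2 and 3 and 3601, 3891 and 1339 in Cre-negative 1, 2 and 3. This was 63.3, 61.1 and 240.3 CPM in the Cre-positive libraries and 310.2, 519.7 and 81.8 CPM in the Cre-negative ones, so Cre-positive 3 and Cre-negative 3 each lay within the range of the other genotype. Eno2 (chromosome 6, 124760053 to 124769673, minus strand) had 537, 3733 and 1625 counts in Cre-positive 1, 2 and 3 and 1615, 3054 and 1954 in Cre-negative 1, 2 and 3, or 38.5, 176.7 and 200.6 CPM against 139.1, 407.9 and 119.3 CPM. The log2 fold changes were -1.25 ± 1.86 for Eno1 and -0.57 ± 2.12 for Eno2. Eno1 kept its sign in all 14 alternatives, between -2.09 (without Cre-positive 3) and -0.88, and Eno2 was -0.023 without Cre-negative 2. Eno2, Tpi1 and Gapdh lie close together on chromosome 6, and their libraries ranked differently: Cre-positive 3 was the highest of the 6 for Tpi1, and Cre-negative 2 for Eno2 and Gapdh.

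Pkm, the pyruvate kinase of muscle, brain and most other tissues (chromosome 9, 59656368 to 59679375, plus strand), had the highest mean CPM of the 10. It had 4850, 5917 and 4601 counts in Cre-positive 1, 2 and 3, or 348.0, 280.1 and 568.1 CPM. In Cre-negative 1, 2 and 3 it had 732, 3279 and 3219 counts, or 63.1, 438.0 and 196.6 CPM. Cre-negative 2 lay among the Cre-positive values and the other 2 Cre-negative libraries below them. The log2 fold change was 0.98 ± 1.25, positive in all 14 alternatives (0.58 to 1.64), with an adjusted p of 0.762 or more in each (edgeR, DESeq2 and limma). It was 0.58 without Cre-negative 1 and 1.64 without Cre-negative 2. An exon of another annotated gene, Gm49759, overlaps 15.3% of the exon bases of Pkm. Gene counts do not separate the M1 and M2 splice forms of Pkm.

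The lactate dehydrogenase genes ranged between libraries from few or no counts to some of the highest counts of the list. Ldha (chromosome 7, 46841475 to 46855627, plus strand) had 1360, 133 and 675 counts in Cre-positive 1, 2 and 3 and 5, 1821 and 5966 in Cre-negative 1, 2 and 3. Ldhb (chromosome 6, 142490249 to 142507957, minus strand) had 3063, 3027 and 705 counts in Cre-positive 1, 2 and 3 and 297, 2804 and 0 in Cre-negative 1, 2 and 3. For both genes the Cre-negative libraries held the lowest and the highest CPM. The log2 fold change of Ldha was -1.46 ± 2.71, and it was -0.58 without Cre-negative 3. That of Ldhb was 0.53 ± 2.66, and it was -0.055 without Cre-negative 3, 3.42 without Cre-negative 2 and 4.77 with limma voom. Cre-negative 3, with 0 counts of Ldhb and the most of Ldha, is the library with 0 counts of Slc17a6 and the high endothelial markers. Of the 15 ganglion cell markers, 7 had at least 10 counts in that library, among them Rbpms (4203) and Ebf1 (4639). It had 1 count each of Thy1 and Tubb3 and 0 of Isl1 and Rbpms2. The sum of the 15 markers, 930.4 CPM, was the lowest of the 6 libraries. The part of the cell content of Cre-negative 3 in the Ldha and Ldhb values was not tested.

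**Figure D2:**
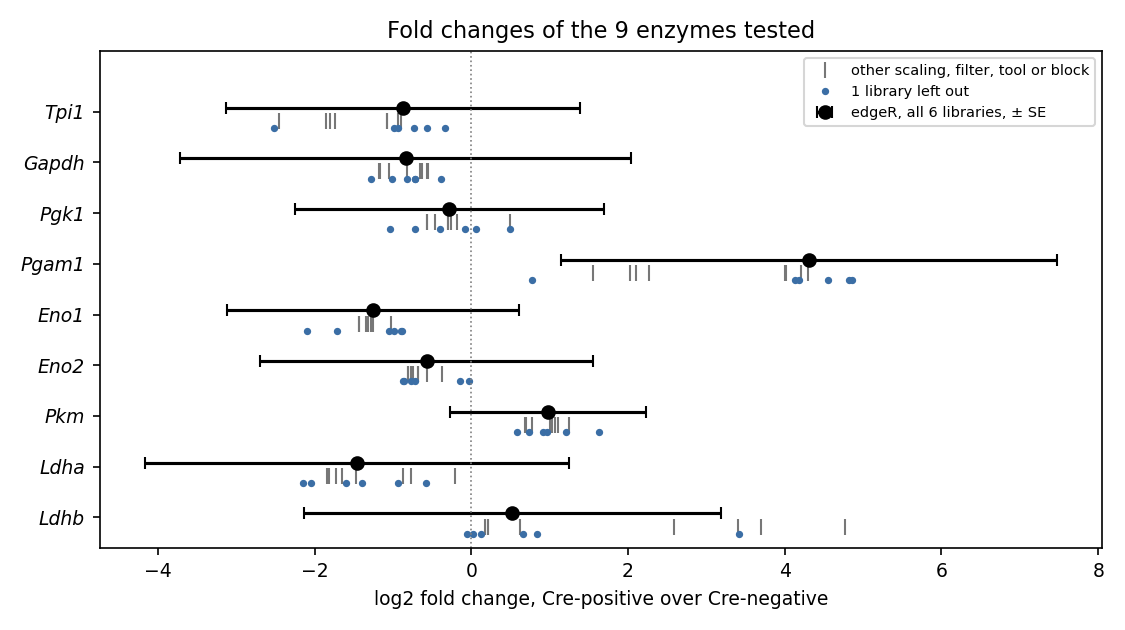
Log2 fold change, Cre-positive over Cre-negative, of the 9 enzymes tested (black, edgeR ± SE), with the values under other scalings, filters, tools or the replicate block (grey ticks) and with 1 library left out (blue dots). The error bars cross 0 except for Pgam1, whose value was 0.78 without Cre-positive 2, and Pgk1 and Ldhb change sign between settings.

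The neuronal and general enolases were compared within each library, where the scaling of the library does not enter. The ratio of Eno2 to Eno1 FPKM was 0.379 in Cre-positive 1 (95% interval 0.340 to 0.423), 1.80 in Cre-positive 2 (1.69 to 1.92) and 0.520 in Cre-positive 3 (0.487 to 0.556). It was 0.279 in Cre-negative 1 (0.263 to 0.296), 0.489 in Cre-negative 2 (0.466 to 0.513) and 0.909 in Cre-negative 3 (0.847 to 0.975). The intervals are exact binomial ones for counting error alone, and PCR copies of a molecule were not removed by a molecular identifier. Near-identical loci cover 85.6% of the Eno1 transcript and none of the Eno2 transcript, and their part in the ratio was not tested. Eno2 was therefore the lower of the pair per length in 5 of 6 libraries, all but Cre-positive 2. With annotated exon lengths (GENCODE M21) in place of the authors' gene lengths, a setting added after the data were seen, it was the higher one in 2 libraries, Cre-positive 2 and Cre-negative 3. The mean log2 ratio was -0.50 ± 1.19 in Cre-positive and -1.003 ± 0.85 in Cre-negative libraries (SD, n = 3 each), a difference of 0.51 (exact permutation test, two-sided, p = 0.6, where 3 against 3 cannot go below 0.1). The difference was -0.17 without Cre-positive 2, 0.96 without Cre-positive 1, 0.088 without Cre-negative 1 and 0.94 without Cre-negative 3.

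Ldhb was above Ldha per length in 5 of 6 libraries, by ratios that differed by more than an order of magnitude. The ratio of FPKM was 9.23 in Cre-positive 1 (95% interval 8.65 to 9.84), 93.2 in Cre-positive 2 (78.4 to 111.8) and 4.28 in Cre-positive 3 (3.84 to 4.76). It was 243.3 in Cre-negative 1 (103.1 to 754.9), where Ldha had 5 counts, and 6.31 in Cre-negative 2 (5.94 to 6.69). In Cre-negative 3 Ldhb had 0 counts, and with a floor of 3 counts put in their place the ratio was 0.00206. The upper end of the 95% interval there was 0.00253. The mean log2 ratio was 3.95 ± 2.31 in Cre-positive libraries (SD, n = 3). With Cre-negative 3 at its floor value the difference between the genotypes was 3.39 (exact permutation test, two-sided, p = 0.8), and without that library it was -1.34. The same 5 libraries had Ldhb above Ldha with annotated exon lengths, at lower ratios. These were 4.75, 48.0 and 2.20 in Cre-positive 1, 2 and 3 and 125.2 and 3.25 in Cre-negative 1 and 2. Near-identical loci cover 76.8% of the Ldhb transcript and 55.0% of the Ldha transcript, and their part in the ratio was not tested.

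**Figure D3:**
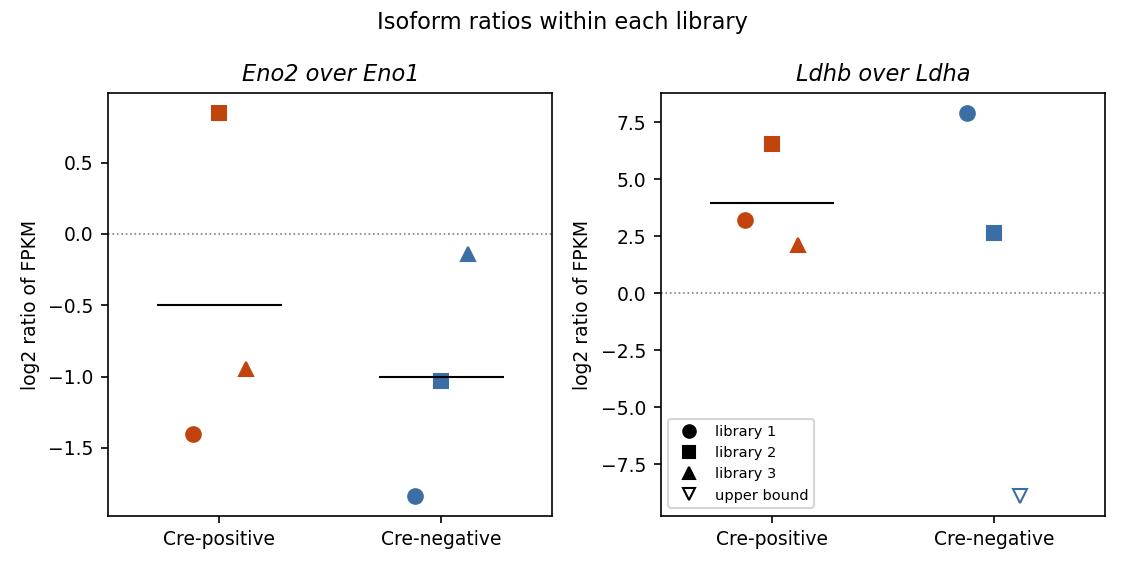
Log2 ratio of deposited FPKM of Eno2 over Eno1 (left panel) and Ldhb over Ldha (right panel) in each Cre-positive and Cre-negative library, with group means as bars where no value is a bound. Eno2 is above Eno1 in Cre-positive 2 alone, and Ldhb is above Ldha in every library but Cre-negative 3. The open triangle of that library, marked as an upper bound, is the value with a floor of 3 counts for Ldhb.

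The 10 enzymes together held 929.4, 1063 and 1562 CPM in Cre-positive 1, 2 and 3 and 863.8, 2720 and 1124 CPM in Cre-negative 1, 2 and 3. The means were 1185 ± 333 CPM in the Cre-positive and 1569 ± 1005 CPM in the Cre-negative group (SD, n = 3 each), a ratio of 0.755, and the ranges overlapped. Cre-negative 2 alone set this order: the difference, Cre-positive minus Cre-negative, was -384.7 CPM with all libraries and 190.6 CPM without it. It was -737.6 CPM without Cre-negative 1 and -607.3 CPM without Cre-negative 3, and -241.3 CPM when libraries were scaled by TMM. Cre-negative 2 is also the library with the highest sum of Müller glia markers (872.5 CPM), though Rlbp1, Sox9 and Dkk3 had 0 counts in it. The part of its cell content in the summed enzyme CPM was not tested. With the authors' gene lengths, the enzyme with the highest FPKM differed between libraries. It was Ldhb in Cre-positive 1 (45.4% of the summed FPKM of the 10), Pgk1 in Cre-positive 2 (37.8%) and Tpi1 in Cre-positive 3 (33.0%), and Eno1 in Cre-negative 1 (36.3%), Ldhb in Cre-negative 2 (23.8%) and Tpi1 in Cre-negative 3 (43.6%).

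**Figure D4:**
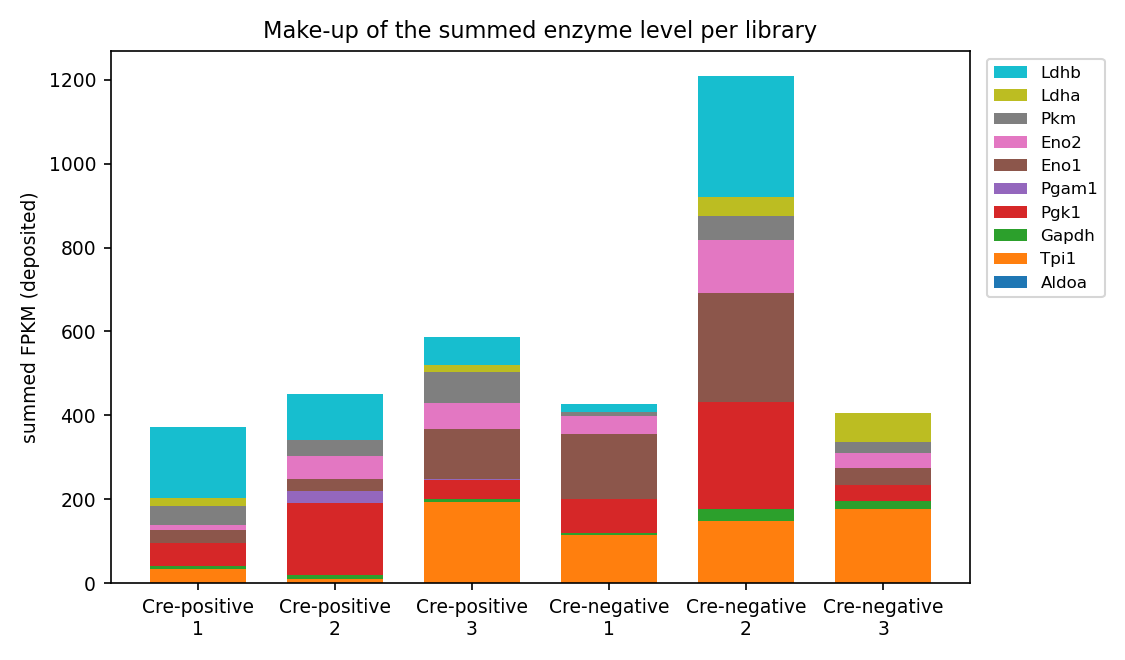
Deposited FPKM of the 10 enzymes, stacked, in the 3 Cre-positive libraries (left) and the 3 Cre-negative libraries (right). Cre-negative 2 is the tallest at 1209 FPKM, the other 5 libraries reach 371.2 to 585.8 FPKM, and the leading enzyme changes from library to library.

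Over all 6 libraries the mean FPKM ran in the order Tpi1 (112.4), Ldhb (108.7), Pgk1 (107.5), Eno1 (106.1), Eno2 (56.0), Pkm (41.1), Ldha (24.8), Gapdh (13.0), Pgam1 (5.15) and Aldoa (0.160). Pkm had the highest mean CPM of the 10 (315.6). The FPKM order rests on the authors' gene lengths, 7687 bases for Pkm, 5342 for Ldha and 2005 for Eno1. The annotated exon lengths were 5001, 3310 and 5379 bases, and the order with them was not worked out. Neighbours in the FPKM order differed by less than the SD of the 6 libraries of the higher one, as did the first 4 among themselves. At least 10 counts were reached in all 6 libraries by 6 of the 10 enzymes (Tpi1, Gapdh, Pgk1, Eno1, Eno2 and Pkm), where 5.34% of all genes in the table and 20.9% of the genes tested did so. Among genes with a mean of at least 100 CPM it was 5 of 7 enzymes, against 47.6% of 2066 genes. The median SD within a genotype was 1.25 for the 7 enzymes on the log2(CPM + 1) scale and 2.65 for those 2066 genes. These are descriptions with no test. The highest library exceeded the lowest 6.87-fold for Pgk1, 7.43-fold for Gapdh, 8.51-fold for Eno1, 9.01-fold for Pkm, 10.6-fold for Eno2, 20.4-fold for Tpi1, 117.4-fold for Pgam1 and 846.1-fold for Ldha.

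For Eno2, Gapdh and Ldhb, the genes nearest in their pattern over the 6 libraries were sought, and none of the 3 nearest to each was another enzyme of the list. The measure was the root mean square difference of log2(CPM + 1), centred per gene, among genes with a mean of at least 100 CPM. Only 7 of the 10 enzymes reached this mean, and 2098 or 2099 genes were compared. With so few enzymes among them, their absence from the nearest 3 cannot show that the enzymes vary apart. Nearest to Eno2 were the proteasome subunit Psmb4 (0.29), the G protein subunit Gnb1 (0.35) and the ATP synthase subunit Atp5a1 (0.39), and the first enzyme was Eno1 at rank 85 of 2098 (0.87). Nearest to Gapdh were the kinase gene Gsk3b (0.32), the ATP synthase subunit Atp5pb (0.34) and Ndfip1 (0.39), an adaptor of ubiquitin ligases, with Eno2 first among the enzymes at rank 143 of 2099. Nearest to Ldhb were Srgap1 (0.36), Amotl2 (0.44) and Anks1b (0.46), with Pgk1 at rank 303 (2.35).

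Of 18 other glycolytic enzymes, 15 were in the table, 6 were tested with edgeR and 0 passed (4 positive and 2 negative log2 fold changes, median 0.41). DESeq2, which has no such filter, gave an adjusted p for 7 of them and called 3 (Hk2, Aldoc and Bpgm), all higher in Cre-positive libraries, against 15% of all genes, and limma voom called 0. Of all 885 genes that DESeq2 called, 744 were higher in Cre-positive libraries. Each of Hk2, Aldoc and Bpgm had a total of 1 count over the Cre-negative libraries. The most abundant were Pfkp, the platelet-type phosphofructokinase that is also the main form in brain, at 418.6 ± 205.7 CPM in Cre-positive and 194.4 ± 166.1 CPM in Cre-negative libraries (log2 fold change 1.15 ± 1.42), and Gpi1, glucose-6-phosphate isomerase, at 148.2 ± 106.8 against 111.1 ± 130.5 CPM (0.51 ± 2.51). The value for Pfkp was 1.80 without Cre-negative 1, 0.76 without Cre-positive 3, 0.55 without Cre-negative 3 and 3.56 with limma voom. That for Gpi1 turned to -0.055 without Cre-negative 2 and -0.060 with limma voom, and was 1.90 without Cre-negative 3. Adpgk, an ADP-dependent glucokinase, followed with 0, 842 and 0 counts in Cre-positive 1, 2 and 3 and 1063, 790 and 0 in Cre-negative 1, 2 and 3. Hk2, an inducible hexokinase, was the only one of the 15 whose genotypes did not overlap, against 10.4% of genes tested in that direction, and it is named after its values were seen. It had 636, 500 and 637 counts in Cre-positive 1, 2 and 3 and 1, 0 and 0 in Cre-negative 1, 2 and 3, a ratio of depth-scaled totals of 1457 (95% counting interval 261.2 to 57579). The tools differed on Hk2: it did not pass over all genes with edgeR (unadjusted p = 0.0281, adjusted p = 0.832) or limma voom (adjusted p = 0.0718) and passed with DESeq2 (adjusted p = 0.00474). Bpgm, which makes 2,3-bisphosphoglycerate, had 589, 375 and 0 counts in Cre-positive 1, 2 and 3 and 0, 0 and 1 in Cre-negative 1, 2 and 3 (DESeq2, adjusted p = 0.0322). Hk1, the hexokinase of brain, had 10, 1692 and 354 counts in Cre-positive 1, 2 and 3 and 1012, 1 and 0 in Cre-negative 1, 2 and 3. Forms of testis and muscle were at most 13 counts in any library for Pgk2, Ldhc and Eno3, while Gapdhs, the sperm form of Gapdh, had 752 counts in Cre-negative 3 and 0 in the other 5.

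Among genes that supply glucose, regulate glycolysis or carry pyruvate onward, edgeR and limma voom made 0 calls and DESeq2 made 3, all higher in Cre-positive libraries. The 3 were Pfkfb2 and Pdk2, among 5 regulators with a DESeq2 adjusted p, and Pdhb, among 5 genes of pyruvate entry. Over all genes with an adjusted p DESeq2 called 15%, and 744 of its 885 calls were higher in Cre-positive libraries. Of 8 transport genes 3 were tested with edgeR, with 2 positive and 1 negative (1 positive and 2 negative without Cre-positive 1). Slc16a1, the monocarboxylate transporter MCT1, had 2667, 1558 and 1510 counts in Cre-positive 1, 2 and 3 and 4314, 0 and 0 in Cre-negative 1, 2 and 3. This was 150.5 ± 66.5 CPM in Cre-positive and 123.9 ± 214.5 CPM in Cre-negative libraries. Its log2 fold change was 0.18 with all libraries, 14.1 without Cre-negative 1, -0.47 without Cre-negative 2 and 6.90 with limma voom. Slc2a1, the glucose transporter GLUT1 of endothelium and many other cells, had 0, 413 and 1056 counts in Cre-positive 1, 2 and 3 and 5, 0 and 5281 in Cre-negative 1, 2 and 3. Bsg, the chaperone of monocarboxylate transporters, had 2664, 4593 and 1313 counts in Cre-positive 1, 2 and 3 and 1796, 321 and 860 in Cre-negative 1, 2 and 3, or 190.2 ± 27.7 against 83.4 ± 62.0 CPM. The genotypes did not overlap in CPM, as in 10.4% of all genes tested in that direction, with a log2 fold change of 1.20 ± 2.38 (edgeR, adjusted p = 0.9998). It was 2.20 without Cre-negative 1 and 0.77 without Cre-negative 2. Of 10 regulators 3 were tested with edgeR: Hif1a, the oxygen-sensitive transcription factor that induces glycolytic genes, was at 441.9 ± 72.5 against 171.4 ± 175.2 CPM (1.35 ± 1.27), Pfkfb3 at 109.1 ± 109.8 against 114.1 ± 123.7 CPM and the pyruvate dehydrogenase kinase Pdk3 at 22.4 ± 38.0 against 102.4 ± 165.1 CPM. The value for Hif1a was 2.74 without Cre-negative 1, 0.77 without Cre-negative 2 and 2.09 with limma voom. Pfkfb3 had 3061, 2270 and 1 counts in Cre-positive 1, 2 and 3 and 1124, 0 and 4020 in Cre-negative 1, 2 and 3. Pdk3 had 4, 1400 and 5 counts in Cre-positive 1, 2 and 3 and 166, 2192 and 0 in Cre-negative 1, 2 and 3. Pfkfb2, a phosphofructokinase-2, had 22, 608 and 1 counts in Cre-positive 1, 2 and 3 and 0 in every Cre-negative library, and was under the filter of the edgeR test (DESeq2, adjusted p = 0.0326). Pdk2, a pyruvate dehydrogenase kinase, had 0, 220 and 525 counts in Cre-positive 1, 2 and 3 and 1, 0 and 0 in Cre-negative 1, 2 and 3 (DESeq2, adjusted p = 0.0295). Of 7 genes for pyruvate entry into mitochondria 5 were tested with edgeR and 5 were positive, where 45.8% of all genes tested were below 0. With 1 library left out, up to 2 of the genes tested were negative (4 positive and 2 negative without Cre-negative 3). Pdhb, a subunit of pyruvate dehydrogenase, had 5790, 2971 and 1 counts in Cre-positive 1, 2 and 3 and 1, 1 and 0 in Cre-negative 1, 2 and 3 (DESeq2, adjusted p = 0.00367). As given above, 71.2% of the Pdhb transcript has a near-identical copy elsewhere, whose part in these counts was not tested. The median of the 5 was 0.67, and the pyruvate carrier Mpc2 was at 469.0 ± 192.8 against 305.2 ± 206.2 CPM, the carrier Mpc1 at 221.4 ± 167.5 against 199.5 ± 136.2 CPM and Dld at 263.9 ± 46.1 against 250.5 ± 419.3 CPM. Dld had 3827, 4507 and 2459 counts in Cre-positive 1, 2 and 3 and 0, 5500 and 278 in Cre-negative 1, 2 and 3. Its log2 fold change was 0.40 with all libraries, 5.07 without Cre-negative 2 and -0.13 without Cre-negative 1. Beside these values stands the detection of more genes in the Cre-positive libraries, 6738, 7209 and 5790 genes at 10 counts or more in Cre-positive 1, 2 and 3 and 4258, 4463 and 4863 in Cre-negative 1, 2 and 3, whose part in them was not tested.

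**Figure D5:**
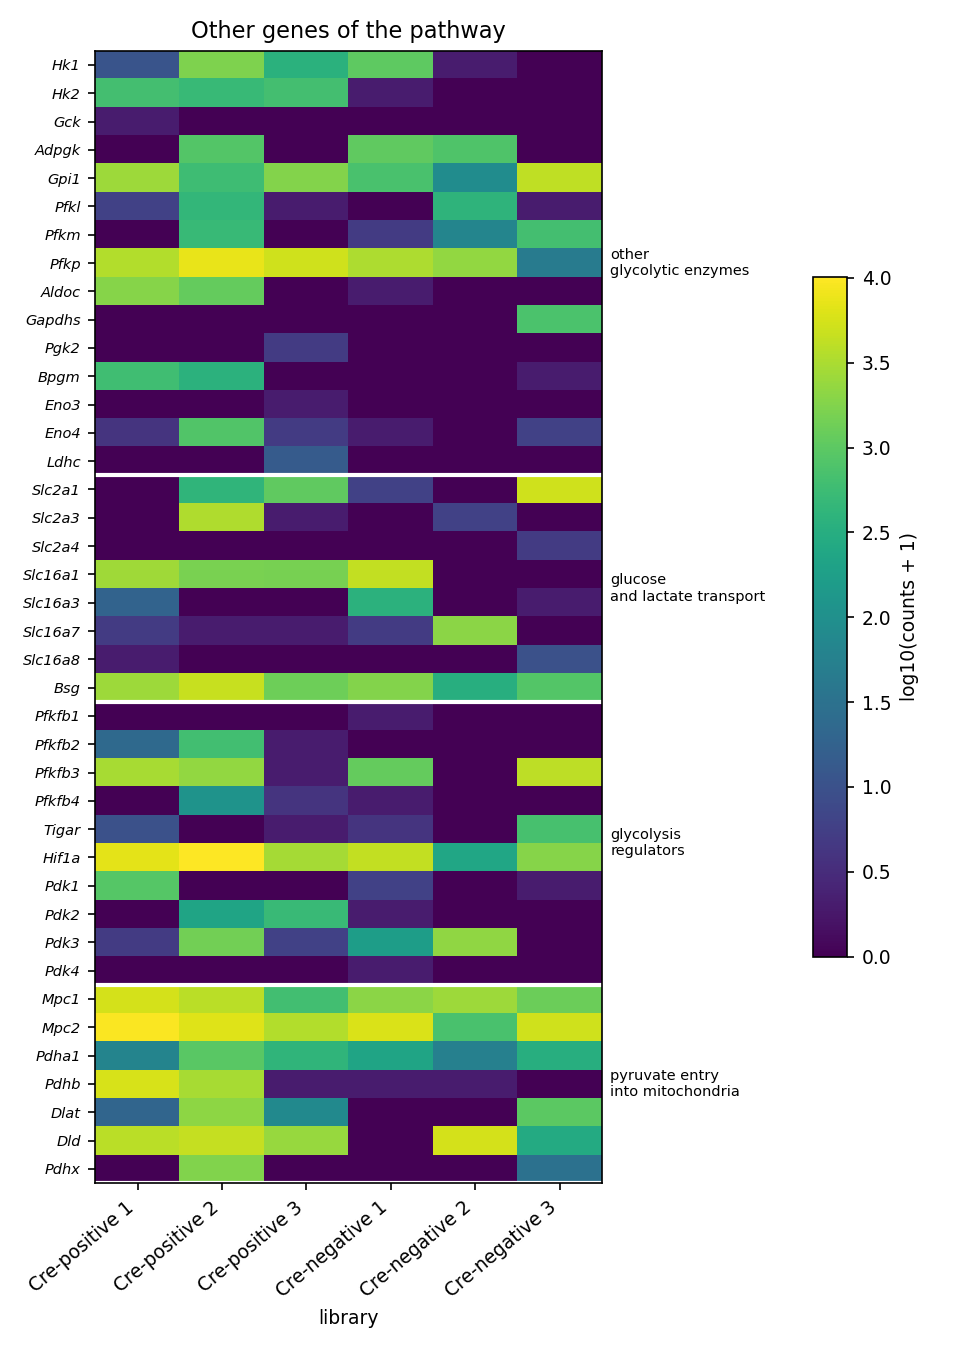
Counts on a log10(counts + 1) colour scale of the 40 other genes of glycolysis, transport, regulation and pyruvate entry, with the Cre-positive libraries on the left and the Cre-negative libraries on the right. Many genes are at or near 0 in some libraries of both genotypes, and Hk2 has 500 to 637 counts in the Cre-positive libraries and at most 1 in the Cre-negative ones.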

How the data were processed

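Each library started from 1 ng of RNA, per the labels' protocols. The submitters' processing notes name mm10, HISAT2, HTSeq, fastp, DESeq2 and R 3.2.0 without their roles. Not given in the sources used here are the annotation and the strand setting, so reads of antisense genes may be included. The authors deposited raw counts per gene and FPKM. The deposited FPKM equal the counts over a fixed gene length and the library total (100% of implied lengths within 0.01 of a whole base).

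Genotypes were compared with edgeR 4.0.16 (TMM, filterByExpr, robust quasi-likelihood test) in R 4.3.3 over 5727 genes, with DESeq2 1.42.0 and limma 3.58.1 as alternatives. Each SE printed for edgeR is approximate: the absolute log2 fold change over the square root of the test's F statistic. An adjusted p was missing from DESeq2 for 16513 genes. Near-identical loci were sought with blastn among GENCODE M21 transcripts. Ratios used exact permutation tests (Python 3.11.15).

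The members and lists were chosen with earlier results of these data known. The text names the 10 members, the 3 genes with the highest mean CPM in each list and the 3 nearest genes in pattern to Eno2, Gapdh and Ldhb; Aldoc, Hk1, Hk2, Gapdhs, Pgk2, Ldhc, Eno3, Bpgm, Pdk2, Pdhb and Pfkfb2 were named after their values were seen. No proteins are printed, and 1 gene of the lists is not reported here.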

Additional observations from a re-analysis of the deposited data

How the results depend on the processing

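The count of genes called was 0 with edgeR under TMM, DESeq2's size factors, library totals, no low-count filter and the replicate block, and 0 with limma on log2(FPKM + 1) and log2(FPKM + 0.1). It was 885 with DESeq2 and 88 with limma voom, and 0 to 7 with 1 library left out, and 0 of these calls were enzymes of the list. Of the 9 enzymes tested, 7 kept their sign in all 14 alternatives. Pgk1 turned with limma voom (0.50) and ran from -1.03 to 0.49 with 1 library left out, and Ldhb ran from -0.055 to 3.42. The median log2 fold change of all genes was 1.58 with limma voom, against 0.14 with edgeR. With 1 library left out, the difference in log2 ratio ran from -0.17 to 0.96 for Eno2 to Eno1 and from -1.34 to 7.08 for Ldhb to Ldha, and the difference in summed CPM from -737.6 to 190.6, and was -241.3 with TMM and -479.9 with DESeq2's size factors. With annotated exon lengths, added after the data were seen, Eno2 exceeded Eno1 in 2 libraries in place of 1. The cause of these changes was not tested. Deviations of same-numbered libraries correlated at -0.02, 0.03 and -0.01, and those of differently numbered ones at -0.05 to 0.06. With this spread between libraries, correlations near 0 cannot show whether the sample numbers pair the libraries. In the replicate block the ratio differences were 0.51 and 3.39 (exact sign-flip test, p = 0.75 each). Input of 1 ng and a biological coefficient of variation of 2.04 limit what 3 libraries a group can show.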
